A study of Arabidopsis thaliana with 251 samples.

Results

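Peak lists from ChIP–seq of *Arabidopsis* leaves were searched for stretches of chromatin that carried dimethylation of histone H3 at lysine 36 (H3K36me2) and no trimethylation at the same residue (H3K36me3). A region was taken when it stood in the H3K36me2 list of *fwa* plants from data set 14, overlapped by at least 1 bp an H3K36me2 region of *fwa* from data set 20, and overlapped no H3K36me3 region of *fwa* from either data set. This gave 3816 regions, called members here, of 25108 H3K36me2 regions in the data set 14 list. The remainder held 14528 regions with both marks in both data sets, which served as the comparison regions, 2189 regions with H3K36me3 in 1 of the 2 data sets, and 1010 regions without and 3565 with H3K36me3 that data set 20 did not list.

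The series describes proteins fused to a zinc finger (ZF) that binds the promoter of the flowering gene *FWA*. All plants were of the Col-0 ecotype, and leaves were taken at 4 to 5 weeks. The *fwa* plants carry an epiallele in which *FWA* has lost its DNA methylation and is expressed, and the fusion lines ELF7-ZF, HD2A-ZF, CPL2-ZF and EYFP-ZF, the last a control with a fluorescent protein, are transgenic plants in that *fwa* background. ELF7-ZF, HD2A-ZF and CPL2-ZF were T2 lines picked for early flowering. The study's vector with the ZF behind the effector carries the effector's own promoter, and its vector with the ZF in front the UBQ10 promoter. Histone marks and RNA polymerase II phosphorylated at serine 5 (Pol II) were profiled in leaves of *fwa*, these lines, Col-0 and the T-DNA mutant *elf7*. FLAG-tagged ELF7, HD2A and TRB1-ZF were profiled in floral tissue, so they were read against leaf regions only side by side. ELF7-FLAG was expressed from its own promoter in the *elf7* mutant. Each list is 1 library, and no source used here says whether libraries came from separate plantings, so the spread between lists may be technical.

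H3K36me3 and H3K36me2 are laid down behind elongating Pol II. In plants the trimethylated form, made mainly by the methyltransferase SDG8, lies over the front of active genes, and the dimethylated form extends towards their ends. ELF7 is a subunit of the Paf1 complex, which travels with elongating Pol II, and H3K27me3 is the mark of Polycomb repression and is usually found on genes without transcription.

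The values of this paragraph come from the lists that chose the members and are descriptive. Members were narrow, with a median width of 392 bp (range 147 to 5551) against 1033 bp in the comparison regions, and weak, with a median fold of the peak caller of 2.11 (range 1.40 to 4.64) against 2.72. Data set 20 covered 2840 of them completely, and 24 members overlapped its peaks by less than 50 bp, the smallest by 1 bp. At the other edge of the rule, 115 regions of both H3K36me2 lists were kept out by less than 50 bp of H3K36me3. The nearest H3K36me3 region lay at a median distance of 858 bp. It was within 100 bp of 229 members, within 500 bp of 1247 (32.7%) and more than 2000 bp away from 834 (21.9%). Together the members spanned 1989.1 kb.

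The sequences below are 200 bases of TAIR10 around the summit of the strongest member of each kind described later, so that the kinds can be seen as DNA. Each is written 5′ to 3′ on the strand of its gene, and capitals mark annotated coding-exon bases. The first comes from the last 40% of a gene's length (AT5G21105, chr5:7176749-7176948, plus strand, 48.5% GC), and the second from the first 20% (*ABCG25*, an exporter of abscisic acid, chr1:27087408-27087607, minus strand, 44.5% GC). The third lay under H3K27me3 and no Pol II peak (AT5G55180, chr5:22389085-22389284, plus strand, 52.5% GC). The fourth lay in a member over a ZF binding site (*BT2*, a BTB and TAZ domain protein, chr3:17909666-17909865, minus strand, 50.5% GC), and none of its 200 bases lay under the data set 20 peak that the member touched. The fifth stood outside genes (chr3:22767417-22767616, plus strand, 54% GC). The last stood in an intron of the disease resistance gene *RPP4* (chr4:9494416-9494615, minus strand, 31% GC) and had no H3K36me2 peak in either ELF7-ZF list, and 198 of its 200 bases lay within the member.
AT5G21105: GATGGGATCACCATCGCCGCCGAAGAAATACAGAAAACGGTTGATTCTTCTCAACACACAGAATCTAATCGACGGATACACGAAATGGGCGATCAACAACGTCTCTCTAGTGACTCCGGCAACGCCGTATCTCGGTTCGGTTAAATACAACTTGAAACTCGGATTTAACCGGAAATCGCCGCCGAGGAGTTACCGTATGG
ABCG25: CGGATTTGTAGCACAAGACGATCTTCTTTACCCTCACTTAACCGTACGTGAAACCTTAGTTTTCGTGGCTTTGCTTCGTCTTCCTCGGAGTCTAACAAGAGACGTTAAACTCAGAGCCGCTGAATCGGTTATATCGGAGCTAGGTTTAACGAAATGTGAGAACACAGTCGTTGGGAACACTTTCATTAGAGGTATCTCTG
AT5G55180: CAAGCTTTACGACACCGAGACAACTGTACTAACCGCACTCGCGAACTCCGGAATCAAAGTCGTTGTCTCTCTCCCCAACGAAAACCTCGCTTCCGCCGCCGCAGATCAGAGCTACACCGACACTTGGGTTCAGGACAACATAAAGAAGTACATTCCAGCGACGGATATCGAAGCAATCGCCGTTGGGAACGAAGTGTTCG
BT2: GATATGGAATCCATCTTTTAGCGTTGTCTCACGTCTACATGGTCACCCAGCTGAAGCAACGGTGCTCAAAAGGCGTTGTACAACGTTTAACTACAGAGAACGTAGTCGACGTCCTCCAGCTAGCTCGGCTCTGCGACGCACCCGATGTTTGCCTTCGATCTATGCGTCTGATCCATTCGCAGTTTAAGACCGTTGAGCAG
outside genes: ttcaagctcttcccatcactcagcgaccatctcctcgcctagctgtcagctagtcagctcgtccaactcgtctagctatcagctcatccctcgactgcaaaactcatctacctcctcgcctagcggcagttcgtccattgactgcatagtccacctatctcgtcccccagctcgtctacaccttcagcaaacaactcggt
RPP4: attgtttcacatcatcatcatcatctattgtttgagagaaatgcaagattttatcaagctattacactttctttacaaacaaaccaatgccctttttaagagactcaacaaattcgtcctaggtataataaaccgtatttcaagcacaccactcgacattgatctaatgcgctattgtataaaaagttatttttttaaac

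The windows of AT5G21105, *ABCG25*, AT5G55180 and *BT2* were coding in all 200 bases, and those of *RPP4* and of the region outside genes in none. Of all members, 3544 (92.9%) had their midpoint in a protein-coding gene of the RefSeq annotation. The midpoint fell in a coding exon in 71.6% of members and 65.4% of comparison regions, in an intron in 14.4% and 26.8%, and outside protein-coding genes in 7.13% and 2.12%. The median GC content was 42.6% in members and 40.8% in comparison regions, and among regions with a coding-exon midpoint it was 43.8% and 41.6%. So members lay more in coding exons and less in introns, and their higher GC content was also seen among coding-exon regions alone.

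Members were of 2 kinds, a division made after the values had been seen and therefore described without a test. The data set 14 list of H3K36me2 was cut into shorter pieces (25108 regions, median 642 bp) than that of data set 20 (19042 regions, median 1147 bp). In 2082 members (54.6%) the data set 20 H3K36me2 peak over the member ran on until it overlapped an H3K36me3 region; these are pieces of a wider peak that reached H3K36me3. The other 1734 members (45.4%) stood alone, under data set 20 peaks that reached no H3K36me3. The 2 kinds were alike in width (medians 355.5 and 430.5 bp) and fold (2.08 and 2.17), and the nearest H3K36me3 lay 488.5 bp away in the wider peaks and 1611 bp away in members that stood alone. The division itself uses the reach to H3K36me3, so it enters this distance.

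Along genes the 2 kinds differed. Members in a wider peak lay towards the gene end, with 68.2% of midpoints in the last 40% of the length of a protein-coding gene, 37.9% in the last 20% and 11.4% in the first 40%. Members that stood alone were spread over the gene body, with 30.9% in the last 40%, 26.7% in the middle 20% and 34.7% in the first 40%. By the division, a member in a wider peak lies off H3K36me3 that the same data set 20 peak reached. The place of H3K36me3 in genes therefore enters this difference, and its part was not tested. In 5% steps along the gene, members in a wider peak were most frequent between 85 and 90% of gene length (14.3% of midpoints) and members that stood alone between 45 and 50% (8.32%). Over all members, 968 midpoints (25.4%) were in the last 20% against 8.13% of comparison regions and 9.85% of all regions, and 1955 (51.2%) in the last 40% against 58.2% of comparison regions and 46.8% of all regions. The excess of 17.2 points in the last 20% did not hold for regions defined in data set 20 alone, where the difference was −4.67 points. The regions of that list were wider, and the part of width in this difference was not tested.

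Counted in bases, H3K36me2 without H3K36me3 lay near gene ends in both data sets. Of the 8.92 megabases under H3K36me2 in both data sets without H3K36me3, 40.1% lay in the last 20% of a gene and 77.3% in the last 40%. Of the 7.45 megabases under both marks, 4.15% lay in the last 20% and 38.6% in the last 40%. With the lists of data set 14 alone the shares in the last 40% were 70.4% without and 34.0% with H3K36me3, and with those of data set 20 alone 69.1% and 36.1%. Members made up 1.84 megabases, or 20.6%, of the H3K36me2 bases without H3K36me3.

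**Figure D1:**
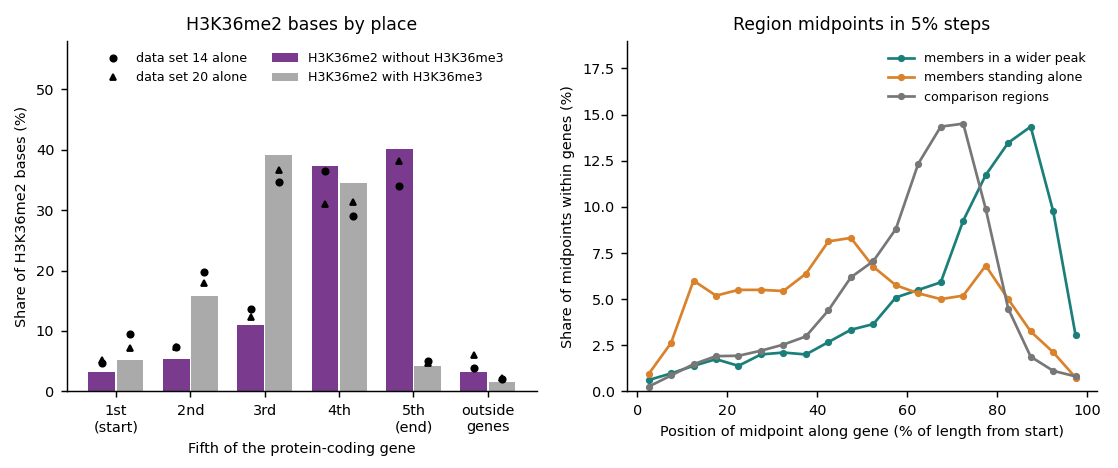
Left, share (%) of H3K36me2 bases with and without H3K36me3 in each 20% of the length of protein-coding genes and outside genes (bars, bases of both data sets; points, each data set alone); right, share (%) of region midpoints in 5% steps of gene length for the 2 kinds of member and the comparison regions. In the last 20% the bar without H3K36me3 reaches 40.1% and the bar with it 4.15%; members in a wider peak are most frequent at 85 to 90% of gene length and members that stood alone at 45 to 50%.

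The 3544 members within genes fell in 2918 protein-coding genes (10.6% of 27444), of which 2445 held 1 member and 473 held 2 or more. These genes also fell into groups. In 1195 genes H3K36me3 of both data sets lay elsewhere in the gene, in 323 genes H3K36me3 of 1 data set did, and 1400 genes had no H3K36me3 in either list. Genes with H3K36me3 elsewhere were long (median 3468 bp) with a median of 9 exons, and 2.09% had a single exon. Genes with no H3K36me3 were short (median 1778.5 bp) with a median of 2 exons, and 31.0% had a single exon, against 2639 bp, 6 exons and 8.89% in the 11131 genes with comparison regions alone. Against genes with comparison regions alone the difference in exons was smaller at matched length. Among genes of at least 1500 and under 2500 bp, single-exon genes made up 24.3% of the member genes with no H3K36me3 and 12.7% of genes with comparison regions alone. Against genes with neither mark it was larger at matched length: 13.2% of those had a single exon there, and 29.6% over all lengths.

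In the 1195 genes with both, 1401 members lay behind H3K36me3: 1321 of them (94.3%) had more H3K36me3 bases on the side of the gene start than on the side of the gene end, and 84.8% of their midpoints were in the last 40%. A region near the gene end has little gene left behind it, so its place enters this count. In the genes with no H3K36me3, 1698 members had 29.2% of midpoints in the last 40% and 31.0% in the middle 20%, and 85.5% of the midpoints were in coding exons.

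At the level of genes, those that carried a member and no H3K36me3 had H3K4me3 and H3K14ac less often than genes with H3K36me3 and more often than genes with neither mark. H3K4me3, a mark of active promoters, was present on 47.6% ± 4.0 of them (SD, 4 lists), on 91.6% ± 3.7 of member genes with H3K36me3, on 97.9% ± 0.6 of genes with comparison regions alone and on 3.73% ± 0.98 of the 8513 genes with neither mark. Pol II was present on 45.1% ± 8.9, 51.0% ± 12.7, 68.6% ± 14.1 and 7.93% ± 2.23 (SD, 6 lists), and H3K14ac, an acetylation of active genes, on 75.9% ± 1.2, 93.6% ± 0.5, 98.3% ± 0.1 and 18.5% ± 1.4 (SD, 4 lists). For H3K4me3 and H3K14ac the lists of these 4 groups did not overlap, and for Pol II the 3 groups with H3K36me2 did. Left out here were the 323 member genes with H3K36me3 in 1 data set and 4882 genes of no other group. H3K4me3 lay on 51.1 to 75.5% and 57.3 to 64.5% of them, against 43.2 to 52.8% of member genes with no H3K36me3. H3K14ac lay on 83.3 to 87.0% and 75.2 to 77.9%, against 74.8 to 77.3%. The lists thus overlapped for H3K4me3 in the former and for H3K14ac in the latter. A longer gene has more room for a peak, and length moved with these groups; its part in the shares was not tested.

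Read along the gene, H3K36me3 peaked in front and H3K36me2 behind it where both were present. In member genes with H3K36me3, H3K36me3 covered most genes at 14.4% of gene length (84.0% of 1193 genes of at least 1000 bp) and H3K36me2 at 70.6% (83.0%). In genes with comparison regions alone, H3K36me3 was highest at 33.1% (94.8% of 10945 genes) and H3K36me2 at 74.4% (93.0%). In member genes with no H3K36me3, H3K36me2 was highest at 29.4% of gene length (56.1% of 1183 genes), with H3K4me3 (28.8% of genes at 21.9% of length) and H3K14ac (40.7% at 18.1% of length) over the same stretch. That maximum was shallow: H3K36me2 covered 52.6% of these genes at 18.1% of length and still 51.5% at 66.9%, so the mark lay almost evenly over that stretch.

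**Figure D2:**
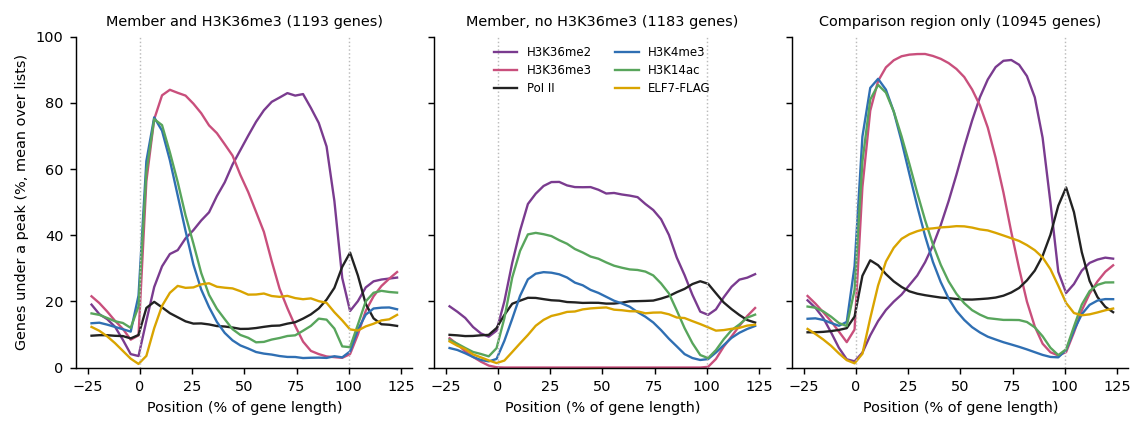
Share (%) of genes under a peak at each position from 25% of gene length before the start (0) to 25% past the end (100), as means over the lists of each mark, for member genes with H3K36me3, member genes without it and genes with comparison regions alone, all of at least 1000 bp. The H3K36me2 line is highest at 70.6%, 29.4% and 74.4% of gene length from left to right.

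Pol II was found less often over members than over comparison regions. The 6 *fwa* lists covered 18.3% of members in data set 8, 28.2% in data set 9, 30.9% in data set 10, 20.7% in data set 11 and 29.2% and 29.0% in data set 14, a mean of 26.03% ± 5.20 (SD, n = 6), against 38.03% ± 9.76 of comparison regions. Members were lower in 6 of 6 lists, with a mean difference of −12 points ± 6.36 and the smallest gap in data set 9 (28.2% and 31.7%). An exact two-sided sign-flip permutation test over the 6 lists gave p = 0.03125, the smallest it can give, and 0.0729 after Benjamini-Hochberg adjustment over 7 marks. No Pol II list covered 2251 members (59.0%; 41.8% of comparison regions, 46.9% of all regions), and all 6 covered 469 (12.3%; 18.4% and 17.2%). The size of the gap moved with the rule of overlap and with width. At the midpoint alone it was −2.74 points ± 5.53, lower in 4 of 6 lists (adjusted p = 0.312, exact sign-flip permutation test). Among regions of 300 to 600 bp it was −9.82 points, and −7.38 points at their midpoint.

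ELF7-FLAG followed the same order. Its 2 floral lists covered 27.4% and 15.4% of members and 62.0% and 39.5% of comparison regions, and both lists covered 565 members (14.8%; 38.9% of comparison regions, 31.1% of all regions). The mean difference of −29.4 points was −19.3 points at the midpoint and −21.05 points at the midpoint of regions of 300 to 600 bp, so it was seen at matched width. HD2A-FLAG, a histone deacetylase of the plant-specific HD2 family with 415 peaks in all, covered 25 members (0.655%; 0.832% of all regions).

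H3K4me3 and the acetylation marks depended on how overlap was counted. By 1 bp of overlap, H3K4me3 covered 20.7% ± 2.1 of members and 31.3% ± 2.9 of comparison regions (SD, 4 lists), H3K9ac 25.1% ± 4.3 and 32.8% ± 5.4 (7 lists), H3K27ac 28.6% ± 5.2 and 38.4% ± 8.1 (6 lists), H4K16ac 23.4% ± 7.2 and 27.9% ± 8.6 (5 lists) and H3K14ac 42.8% ± 1.5 and 43.9% ± 1.5 (4 lists), with members lower in every list of each mark. All 4 H3K4me3 lists covered 512 members (13.4%; 25.8% of comparison regions, 27.5% of all regions) and none covered 2750 (72.1%; 63.2% and 58.5%), and all 4 H3K14ac lists covered 1237 (32.4%; 34.8% and 39.4%). At the midpoint members were higher in every list of each mark, by 1.85 points for H3K4me3, 3.86 for H3K9ac, 2.96 for H3K27ac, 4.41 for H4K16ac and 12.8 for H3K14ac. No adjusted p was under 0.05 by either count, the lowest being 0.0729 for H3K9ac and H3K27ac (exact sign-flip permutation test, Benjamini-Hochberg over 7 marks), which is also the lowest that these numbers of lists allow.

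The 2 kinds of member lay on either side of that average. H3K4me3 covered 4.18% and 3.89% of members in a wider peak in data sets 1 and 2, and 6.34% and 4.56% in data set 14, against 35.9%, 38.9%, 44.1% and 40.6% of members that stood alone. H3K14ac covered between 24.4% and 26.9% of members in a wider peak and between 61.9% and 65.5% of members that stood alone (4 lists each), with the comparison regions between the kinds at 42.0 to 45.6%. Pol II covered 12.1 to 26.4% and 25.7 to 36.8% (6 lists), and was higher on members that stood alone in each of the 6 lists. These shares are by 1 bp of overlap, and the place of the comparison regions moved at the midpoint. There Pol II covered a mean of 13.7% of members in a wider peak, 24.7% of members that stood alone and 21.5% of comparison regions. H3K14ac covered 18.1%, 54.2% and 21.7% at the midpoint. ELF7-FLAG covered 24.4% and 11.8% of members in a wider peak and 31.0% and 19.8% of members that stood alone, both below the comparison regions. Members in a wider peak thus lay mostly outside the peaks of active promoters. That members that stood alone lay within H3K4me3 and H3K14ac peaks more often than comparison regions rested on weaker peaks. With the upper 50% of peaks by fold, H3K4me3 covered 4.82% ± 1.2 of members that stood alone, 0.588% ± 0.393 of members in a wider peak and 16.8% ± 2.4 of comparison regions, and H3K14ac 23.4% ± 1.2, 4.39% ± 0.16 and 26.7% ± 1.0 (SD, 4 lists).

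The gene groups, which cut across these kinds (412 of 1698 members in genes with no H3K36me3 lay in a wider peak, and 184 of 1401 in genes with H3K36me3 stood alone), differed by an amount that changed along the gene. Among members in the middle 20% of a gene, H3K4me3 covered 47.8% ± 3.1 of 527 in genes with no H3K36me3 and 1.57% ± 1.11 of 127 in genes with H3K36me3 elsewhere (SD, 4 lists). H3K14ac covered 68.8% ± 1.3 and 12.99% ± 1.02, and Pol II 37.3% ± 5.7 and 12.5% ± 2.5 (6 lists). In the last 20% the gap was smaller for H3K4me3 (8.58% ± 1.92 of 172 and 3.73% ± 1.28 of 703), and for Pol II it was within the spread of lists (26.8% ± 8.7 and 27.7% ± 8.6). In the first 20% the order was the other way for H3K4me3 (34.7% ± 4.3 of 261 and 45.8% ± 6.6 of 36) and within the spread of lists for Pol II (24.8% ± 6.0 and 30.1% ± 9.5) and H3K14ac (66.8% ± 1.4 and 64.6% ± 3.5). By the rule a member lies off H3K36me3, which limits its place in genes with H3K36me3 and not in the others. The part of this limit in these gaps was not tested.

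**Figure D3:**
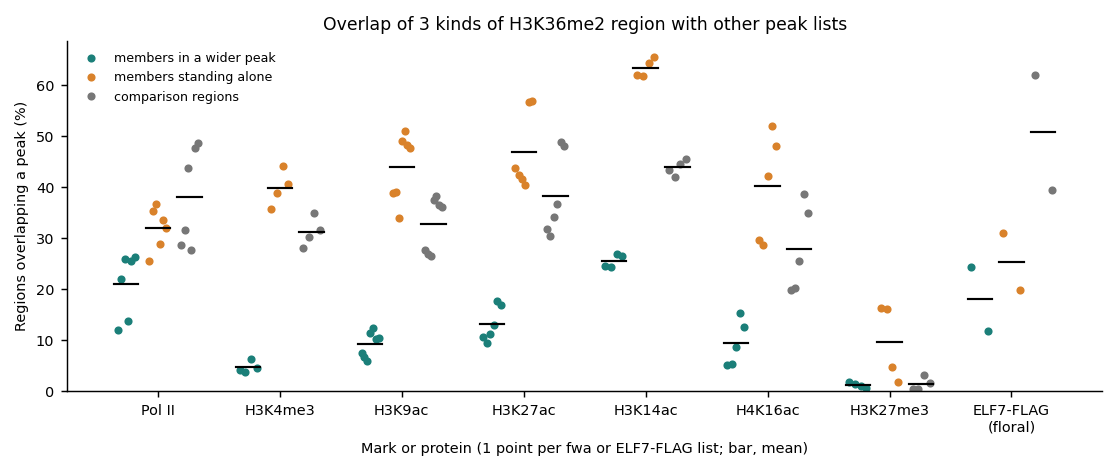
Share (%) of regions that overlap a peak by at least 1 bp in each *fwa* list, or each ELF7-FLAG list of floral tissue, for members in a wider peak, members that stood alone and comparison regions (points, lists; bars, means). H3K14ac covers 24.4 to 26.9% of members in a wider peak, 61.9 to 65.5% of members that stood alone and 42.0 to 45.6% of comparison regions.

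H3K27me3 was more frequent over members in 2 of its 4 lists. In data sets 1 and 2, with 12441 and 14103 regions, it covered 8.49% and 8.07% of members against 0.516% and 0.578% of comparison regions. In data set 14, with 2199 and 1149 regions, it covered 2.78% and 1.21% of members against 3.25% and 1.64%. Over the 4 lists the difference was 3.64 points ± 4.73 (2 lists higher, 2 lower; adjusted p = 0.5, exact sign-flip permutation test), and without the data set 14 lists, left out after their size had been seen, it was 7.73 points ± 0.34. Both lists of data sets 1 and 2 covered 220 members (5.77%; 0.296% of comparison regions, 2.46% of all regions), and 114 of these had no Pol II peak in any *fwa* list (2.99%; 0.0619% and 0.952%). Among all 3816 members 2251 (59.0%) had no Pol II peak, so the 220 did not lack Pol II more often than members did in general. The overlap with H3K27me3 lay in members that stood alone, at 16.4% and 16.1% in data sets 1 and 2, against 1.92% and 1.39% in a wider peak. Of the 220 members, 182 lay in genes with no H3K36me3. In whole leaves, 2 marks on the same nucleosomes and the same region marked differently in different cells cannot be told apart. The H3K27me3 lists of data sets 1 and 2 also covered *ACT2* and *UBQ10*, 2 of 6 housekeeping genes, beside 4 of 4 Polycomb target genes. The lists of data set 14 covered *ACT2* and *UBQ10* too, so these genes had 4 of 4 lists. Of the Polycomb targets *AG* had 4 lists, *SEP3* and *STM* had 3, and *FUS3* had only the 2 of data sets 1 and 2. The part of such peaks in the overlap was not tested.

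The 10 members of highest fold were read one by one. Of these, 9 stood alone in genes with no H3K36me3: *CNI1*, a ubiquitin ligase of the carbon and nitrogen response (fold 4.64), *BT2* (4.57), *iqd21*, an IQ-domain protein (4.52), AT1G11210 (4.50), *ABCG25* (4.46), AT5G55180 (4.44), the auxin carrier *PIN4* (4.36), AT2G26520 (4.27) and AT3G10720 (4.23). H3K14ac covered these 9 members in 2 to 4 of 4 lists and H3K4me3 in 3 or 4 of 4. Pol II covered 6 of them in 6 of 6 lists, *iqd21* in 4 and AT5G55180 and AT2G26520 in none. The exception was *MES6* (4.28), a methylesterase gene, where the member lay in a wider peak, 296 bp from H3K36me3, and no Pol II, H3K4me3 or acetylation list covered it. The member of *CNI1* lay at chr5:9684072-9685227 at 37.7% of gene length, 2131 bp from H3K36me3, with a GC content of 49.5%. The folds above are those of data set 14, where the 10 members stood at percentiles 98.5 to 99.6 of the list. In data set 20 the peaks over them stood at percentiles from 22.6 (*BT2*) to 99.7 (AT5G55180).

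The widest members were of the other kind. The 5 widest were 5551 bp in the kinase gene *ATR* (chr5:16343134-16348684), 5338 bp over the pseudogene AT4G16870, 5033 bp in *ACC2*, a plastid acetyl-CoA carboxylase, 4138 bp in AT1G56130 and 3732 bp in *NRPD1B*, the largest subunit of the plant-specific polymerase Pol V. All 5 lay in wider peaks that reached H3K36me3. No Pol II, H3K4me3, H3K9ac or H3K27ac list covered the 4 in genes, whereas 6 of 6 Pol II lists covered the one over AT4G16870. That one (up to chr4:9488387) borders *RPP4* (from chr4:9488466), a gene of a cluster of similar genes. Only uniquely mapped reads were kept, so peaks there are uncertain. The most members in 1 gene were 6, in *AGO6*, an Argonaute of RNA-directed DNA methylation, in *PS1*, which acts in male meiosis, and in AT1G55550. In *AGO6* and *PS1* the data set 20 list had 1 peak over all 6 members (fold 2.83 and 3.61), which data set 14 gave as separate pieces.

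**Figure D4:**
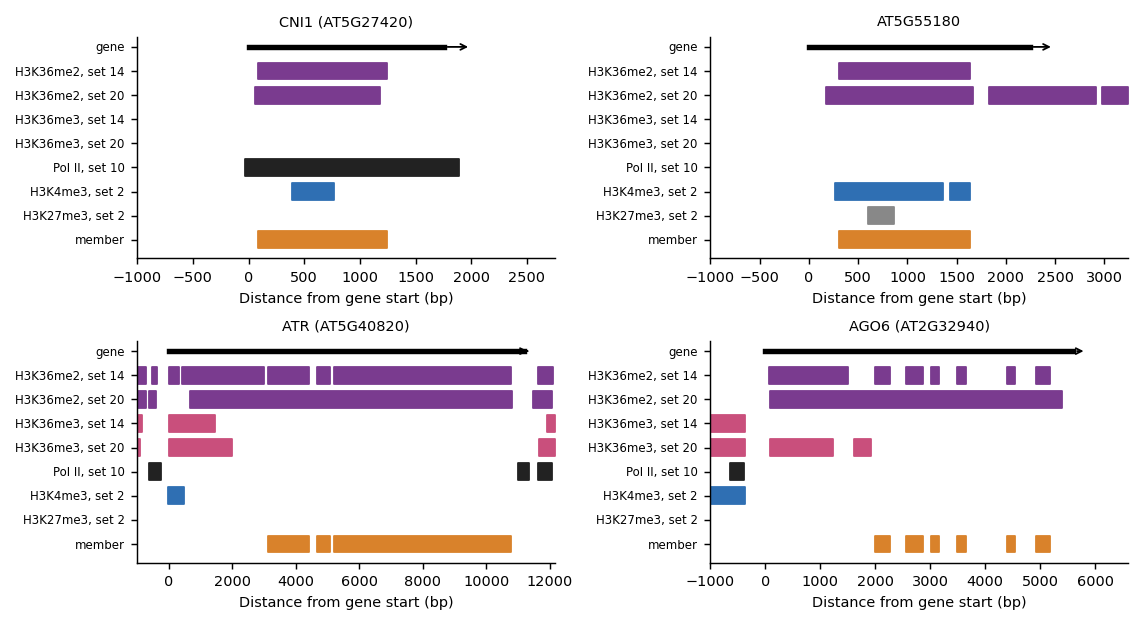
Peaks over 4 genes that carry members, drawn by distance (bp) from the gene start with the gene running left to right; set gives the data set of each list. *CNI1* and AT5G55180 carry a member with no H3K36me3 over the gene, whereas in *ATR* and *AGO6* 1 wide H3K36me2 peak of data set 20 overlaps H3K36me3 at the front (in *AGO6* that of data set 20 only) and the members lie behind it.

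Among members under H3K27me3 with no Pol II, the 3 of highest fold lay in AT5G55180 (4.44), *ROH1* (4.06) and AT4G29610 (3.78). Each also lay under H3K4me3 in 2 to 4 of 4 lists, and H3K14ac covered them in 2, 4 and 4 of 4 lists. In AT5G55180 the H3K4me3 peak of data set 2 ran from 266 to 1359 bp behind the gene start and the H3K27me3 peak of the same data set from 600 to 863 bp, so the 2 marks shared bases.

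H3K36me2 was kept over most members in ELF7-ZF. The data set 14 list of ELF7-ZF covered 92.7% of members and that of data set 20 98.2%, against 92.2% and 96.9% of comparison regions. Both lists covered 3486 members (91.4%; 90.7% of comparison regions, 76.4% of all regions) and neither covered 20 (0.524%; 1.55% and 6.37%). Retention was higher at higher fold in *fwa* and differed most from the comparison at low fold: in the lowest of 4 equal groups of members by fold (1.40 to 1.87) it was 85.4% in data set 14 and 97.0% in data set 20, against 62.3% and 86.5% of comparison regions in the same range of fold. In the group of highest fold it was 99.4% and 98.6% of members and 99.3% and 99.5% of comparison regions. The 3 members of highest fold with no H3K36me2 in ELF7-ZF lay in *RPP4* (fold 2.36), at the pseudogene AT3G29120 (2.34) and in AT3G29130 (2.21). *RPP4* belongs to a cluster of similar resistance genes, and reads that map to more than 1 place were dropped by the authors, so peaks there are uncertain.

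Members were chosen to have a peak in *fwa*, so a fall from 100% is built into that count. A reading without this bias took regions chosen by the *fwa* lists of 1 data set and read *fwa* and ELF7-ZF in the other. Regions with H3K36me2 and no H3K36me3 in data set 14 (6043) had H3K36me2 in data set 20 in 82.9% in *fwa* and 85.2% in ELF7-ZF. Regions chosen so in data set 20 (4335) had H3K36me2 in data set 14 in 55.7% in *fwa* and 69.2% in ELF7-ZF. The shares were thus higher in ELF7-ZF in both readings, by 2.28 and 13.5 points, whereas regions with H3K36me3 differed by −0.147 and −0.394 points. H3K36me3 at the regions chosen without it was also higher in ELF7-ZF, by 1.21 points in data set 20 and 3.599 in data set 14. The ELF7-ZF lists of H3K36me2 had more regions than those of *fwa* (29961 and 25108 in data set 14, 19941 and 19042 in data set 20). They covered 23125156 bp against 23291249 in data set 14 and 28170264 against 27178281 in data set 20. The H3K36me3 lists of ELF7-ZF covered 30269419 bp against 27150183 in data set 14 and 27663275 against 26853472 in data set 20. The part of list length and of bases covered in these differences was not tested. With 1 pair of lists in each data set no test can pass a threshold of 0.05.

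**Figure D5:**
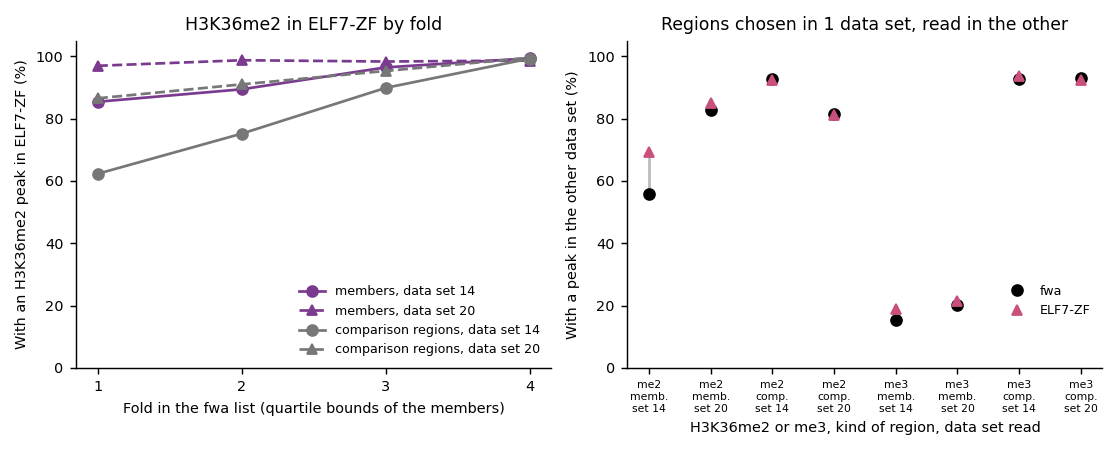
Left, share (%) of members and comparison regions with an H3K36me2 peak in ELF7-ZF in 4 ranges of fold bounded by the members' quartiles; right, share (%) of regions chosen by the *fwa* lists of 1 data set that have a peak in the other data set in *fwa* (circles) and ELF7-ZF (triangles). In the lowest range of fold, 85.4% of members and 62.3% of comparison regions have a peak in data set 14.

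Members were also chosen to have no H3K36me3 in *fwa*, so any H3K36me3 over them in ELF7-ZF counts as a rise by the rule and is given as a description. H3K36me3 was listed in ELF7-ZF at 506 (13.3%) in data set 14 and 268 (7.02%) in data set 20, and at 101 (2.65%; 71.4% of all regions, most of which had it in *fwa*) in both. Neither list had it at 3143 members (82.4%; 17.3% of all regions). The 3 of highest fold with H3K36me3 in both lay in AT3G61820, an aspartyl protease (H3K36me2 fold 4.22), *EXL2*, an EXORDIUM-like gene (3.85), and AT2G48030 (3.84), each alone in a gene with no H3K36me3 in *fwa*. Their H3K36me3 folds in ELF7-ZF were low within their lists, at percentile 33.6 for AT3G61820 in data set 14 and at percentile 10.3 or lower in the other 5 readings.

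ZF binding sites were taken as FLAG peaks of TRB1-ZF with at least 4-fold signal (6091 sites). The paper gives the same number for its FLAG-ZF sites at that threshold, but no label names TRB1-ZF as that line. The part of TRB1 in these peaks was not tested. By 1 bp of overlap they lay over 279 members (7.31%), against 8.29% of comparison regions and 7.73% of all regions. With TRB1-ZF peaks of any fold the order turned with the rule of overlap. Members were below comparison regions by 1 bp of overlap (−4.12 points). At the midpoint these peaks covered 13.1% of members, 7.72% of comparison regions and 9.84% of all regions. Whether sites of at least 4-fold turn in the same way was not tested, so no background rate is inferred. In the reading across data sets, H3K36me2 was higher in ELF7-ZF by 4.31 and 18.9 points at regions over a ZF site and by 2.13 and 12.98 points at the others, and H3K36me3 by 5.74 and 5.63 points against 0.871 and 3.40. The strongest members over a ZF site lay in *BT2* (site of 5.94-fold), AT3G10720 (4.47-fold) and AT5G35735 (4.37-fold). In AT5G35735 the H3K36me2 fold was 4.09 in *fwa* and 7.22 in ELF7-ZF in data set 14, and 1.44 and 1.87 in data set 20, and these folds stood at percentiles 97.8 and 99.97 of their lists in data set 14 and at 1.97 and 22.7 in data set 20.

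No difference in Pol II over members between lines was set apart from the spread between lists. In ELF7-ZF it covered 24.3% and 28.2% of members in data sets 8 and 9, and in *fwa* of the same data sets 18.3% and 28.2%, a difference of 3.05 points ± 4.28 (exact permutation test, p = 0.667). The difference lay in data set 8, where it was 6.08 points over members and 14.5 over comparison regions, and where the *fwa* list was the shortest of the 6. In HD2A-ZF it covered 23.4% and 18.7%, 2.19 points below *fwa* on average, above it in data set 8 and below it in data set 9 (p = 1, exact permutation test). CPL2-ZF and EYFP-ZF differed from their *fwa* lists by −0.170 and −0.0655 points. In *elf7* Pol II covered 27.8% and 20.05% of members and in Col-0 27.6% and 28.4% (difference −4.10 points ± 5.95, p = 0.667, exact permutation test). The difference rested on data set 13, whose *elf7* list had 10611 regions and peak names that spell H3, not Pol II, and in data set 12 alone it was 0.105 points. H3K27me3 covered 7.91% and 6.997% of members in ELF7-ZF and 8.49% and 8.07% in *fwa* (the smallest p that 2 lists against 2 can give), and H3K4me3 17.9% and 18.9% against 18.6% and 19.8% (p = 0.667), by the same exact permutation test. No such comparison can pass a threshold of 0.05.

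Over all protein-coding genes 10.6% held a member, and the lists of the H3K36 and elongation machinery are too short to be set apart from that. None of 8 H3K36 methyltransferase and reader genes held one, *EFS* (SDG8) included, and 7 of the 8 had comparison regions. Of 6 Paf1 complex genes, *ELF8* and *PHP* (CDC73) did, and of 7 elongation factor genes *SPT16* did, each beside a comparison region. All 13 genes had H3K36me3 in both lists. Those 3 members (186, 473 and 155 bp wide) lay in the last 20% of the gene, under no H3K4me3 list. One of 6 genes of the *FLC* clade of flowering repressors had a member, *MAF1* (FLM), at 92.2% of gene length, and 1 of 6 housekeeping genes, *PEX4*, at 88.7%. None of 4 Polycomb target genes had one.

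Of 4 leaf markers, *CAB3*, a light-harvesting protein of photosystem II, held a member of 829 bp with fold 3.03 in data set 14 and 4.65 in data set 20, and had no H3K36me3 in either list. *CAB3* has a near-identical neighbour, *CAB2*, and only uniquely mapped reads were kept, so its peaks are uncertain. H3K4me3 covered 2 of 4 leaf markers in all lists and none of 4 seed and flower genes in all lists. H3K27me3 of data sets 1 and 2 covered those 4, and also the leaf marker *RBCS2B* in both lists and *RBCS1A* in 1. With the data set 14 lists added, *RBCS2B* had H3K27me3 in 4 lists and *RBCS1A* in 3, whereas the seed genes *CRA1* and *SESA1* stayed at 2.

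Outside protein-coding genes lay 272 members. Their midpoints fell in no annotated gene in 103, in pseudogenes in 67, in transcribed pseudogenes in 36, in lncRNA genes in 29 and in other RNA genes in the rest. Members more than 500 bp from any annotated gene numbered 12. The strongest of these lay at chr3:22767239-22767793, 1327 bp from AT3G61520 (fold 2.91), with Pol II in 3 of 6 lists and H3K14ac in 4 of 4. The next were at chr1:14252697-14253907 (2.52; Pol II in 6 of 6 lists) and chr1:15419987-15420260 (2.36; Pol II in 5 of 6 lists), and no H3K14ac list covered either. Members were spread over the 5 chromosomes in shares close to those of genes (26.5, 14.3, 21.5, 14.6 and 23.2% on chromosomes 1 to 5, against 26.1, 15.7, 19.9, 15.2 and 23.1% of genes), and 2.73% lay in gene-poor stretches, which hold 2.79% of genes and 1.35% of comparison regions.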

How the data were processed

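ChIP–seq peak lists of leaf and floral tissue were used, 64 lists of 1 library each, which the labels sort by line, mark and data set. According to the methods of the authors, only reads with 1 place in TAIR10 and no mismatch were kept (Bowtie2 2.1.0), copies of a read were dropped (Samtools 1.9) and MACS2 (2.1.1) called the peaks. Each deposited peak has a fold, a ratio of its height to the background the caller estimated, and a deposited −log10 q value. Which control library entered that background for histone marks and Pol II is not given in the sources used here, so folds of different lists are not on one scale. The lists of HD2A-FLAG and of ELF7-FLAG replicate 1 hold positions only. RNA-seq samples, BS-PCR-seq files and fusion lines other than those named were not used. Read depth is unknown, and the number of regions per list is its only measure: 16299 and 16614 in the H3K36me3 lists of *fwa*, 16209 to 24699 in those of H3K4me3, H3K9ac, H3K27ac and H3K14ac, 12389 to 20995 for H4K16ac and 11758 to 19505 for Pol II.

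Regions of the 5 chromosomes were compared by overlap of at least 1 bp, and gene parts were taken from the RefSeq annotation of TAIR10.1. Genes were divided into 5 equal stretches of length from the start. Gene-poor stretches are bins of 500000 bp with fewer than 50 protein-coding genes. The share of members and of comparison regions with a peak was compared per list with an exact two-sided sign-flip permutation test over lists, adjusted by Benjamini-Hochberg over 7 marks. Lines were compared by an exact two-sided permutation of lists. The code was tested on simulated data and ran in Python (3.11.15), with pandas (2.3.3) for tables, numpy (2.4.6) for permutations, scipy (1.17.1) and, for plots, matplotlib (3.10.9). Alternatives were other overlaps, widths, distances and peak strengths, and leaving out lists. Named regions are the 10 of highest fold, the 5 widest, the 3 strongest of each described kind, the 3 genes with most members and the genes of the lists with a member. The members and gene lists were chosen with earlier results of these data known, and the division by wider peaks and gene groups after the values had been seen.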

Additional observations from a re-analysis of the deposited data

How the results depend on the processing

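The share with Pol II or ELF7-FLAG stayed lower in members under every alternative run. That with H3K27me3 was higher except in the 2 lists of data set 14 alone (−0.452 points), and was 2.20 or 2.36 points without the list of data set 1 or of data set 2. The differences in H3K4me3 and acetylation turned with the rule of overlap. At the midpoint the difference between members and comparison regions was 1.85 points for H3K4me3, 3.86 for H3K9ac, 2.96 for H3K27ac, 12.8 for H3K14ac and 4.41 for H4K16ac, and with 50% of the region covered it was 1.19, 3.29, 1.93, 12.2 and 3.65. H3K14ac was also higher in members with no H3K36me3 within 500 bp (5.71), at widths of 300 to 600 bp (6.93) and at those widths by midpoint (8.54), and H4K16ac in the first and last of these (0.773 and 0.454). With ELF7-FLAG the difference was −19.2 points with 50% covered, −19.3 at the midpoint and −21.05 at the midpoint of regions of 300 to 600 bp. Members of 300 to 600 bp numbered 1376. With the upper 50% of peaks by fold members were further below comparison regions, by −14.3 points for H3K4me3, −12.4 for H3K9ac, −15.7 for H3K27ac, −13.7 for H3K14ac and −6.56 for H4K16ac, and the difference between members that stood alone and those in a wider peak was 4.23 points for H3K4me3 and 19.05 for H3K14ac, in place of 35.1 and 37.8.

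Leaving out 1 H3K36 data set gave between 4335 and 6043 members, a difference in midpoints in the last 20% of genes of −4.67 to 12.5 points and in H3K36me2 bases there of 29.0 to 33.4 points, retention of 80.6 to 88.1%, H3K36me3 in ELF7-ZF of 12.5 to 19.7% and ZF sites at 6.92 to 9.02%. The lower midpoint value and the higher ZF share come from data set 20 alone. Leaving out 1 data set or list moved the difference in H3K14ac between −3.08 and 2.60 points and in H4K16ac between −6.53 and 0.946, with the upper ends without data set 14, where H3K4me3 (−0.799) and H3K9ac (−0.0252) were also nearly level. Between lines it moved Pol II of HD2A-ZF between −9.49 and 5.11, of CPL2-ZF between −0.923 and 0.550, of EYFP-ZF between −0.629 and 0.498 and of *elf7* between −8.31 and 0.105 points; data set 12 alone gave 0.105 for *elf7*.

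The CPL2-ZF and EYFP-ZF differences, under 0.2 points, also turned by midpoint (0.354 and 1.11), with 50% covered (0.563 and 0.904), with the upper 50% of peaks by fold (0.354 and 0.0917) and with no H3K36me3 within 500 bp (0.0779 and 0.117). Retention was 91.4% by midpoint and 61.0% with the upper 50% of peaks, H3K36me3 in ELF7-ZF 4.77%, 3.81% with 50% covered and 1.91%, and ZF sites 5.06% by midpoint and 4.93% with 50% covered. With data sets taken as pairs (a replicate block), the difference in Pol II of ELF7-ZF stayed 3.05 points with p = 0.5 (exact sign-flip permutation test), the smallest 2 pairs allow, and the block changed no call. Whether equal replicate numbers share plants is not given. The alternatives by data set, the sets without a list and the combined width and midpoint were chosen after seeing the data. Peak lists hold no depth, so an absent peak does not show an absent mark.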
